A study of Mus musculus with 9 samples.

Results

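The 2′-5′-oligoadenylate synthetases (Oas enzymes) and the cytosolic receptors for viral RNA were followed as a set of 10 genes in RAW264.7 cells. The set was picked by gene symbol, when earlier results of these data were known, and held Oas1a, Oas2, Oas3, Oasl1, Oasl2, Ifih1, Ddx58, Dhx58, Eif2ak2 and Zbp1. These were 10 of the 55401 genes in the expression table, and all 10 reached a mean of 1 TPM, a unit that scales reads by transcript length and by the sum of each library, as did 12819 genes in all.

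RAW264.7 is a mouse macrophage line derived from a tumor induced by Abelson murine leukemia virus, and it was labelled as wild type. The cells were treated for 24 h with DMSO, the solvent (DMSO group), with DMSO and lipopolysaccharide, a component of the bacterial outer membrane (LPS group), or with LPS and skatole, which is 3-methylindole (LPS + Ska group). Each group had 3 replicates, numbered 5, 6 and 7, and total RNA was sequenced. All groups came from 1 cell line, and nothing in the labels said that replicates were separate cultures, so the p-values measure only the spread between these samples.

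The LPS and LPS + Ska columns were tied, which sets the precision of every value that follows. The LPS replicate 5 column equalled the mean of replicates 6 and 7 within 1e-05 TPM in 17950 of 17950 genes that were above 0 in both of those replicates, and the LPS + Ska replicate 5 column did so in 17658 of 17658 such genes. In the DMSO group at most 0.0614% of such genes did so. The LPS and LPS + Ska groups therefore hold at most 2 independent values each. Genes at 0 in replicate 6 or 7 were not counted, and some of them did not follow that mean. Ifnb1 was at 0.0372, 0.112 and 0 TPM with LPS, and Oas1d at 0.0254, 0 and 0.0762 TPM with LPS + Ska. Replicates 6 and 7 may thus not be raw libraries either, and their spread may exceed that of the values behind them. How the columns were made was not tested. All 3 columns are printed and enter the fit, so their SD rests on 2 values and the p-values are smaller than 2 values alone would give. TPM keeps no read depth, so the depth of each library is unknown and no counting interval can be given. Of 8 macrophage markers, 7 reached 1 TPM and Mertk was listed at 0 in every column, whereas of 20 markers of other cell types only S100a8 reached 1 TPM and 11 were at 0 in every column. The summed level of the macrophage markers ran from 10736 to 11686 TPM with DMSO, from 5647 to 5989 TPM with LPS and from 11301 to 11441 TPM with LPS + Ska. The lysozyme gene Lyz2 had the highest level of them, with means of 9151, 4423 and 10061 TPM in those groups. Its part in the TPM of other genes was not tested. In bulk samples, fewer cells that express a gene and less RNA per cell cannot be told apart.

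RNA that enters the cytosol, as in a viral infection, is recognised by several families of proteins. The Oas enzymes bind dsRNA and make short oligoadenylates that act as an antiviral signal. The RIG-I-like receptors Ddx58 (RIG-I) and Ifih1 (MDA5) signal through the mitochondrial adaptor Mavs to induce interferon. The kinase Eif2ak2 (PKR) shuts down translation when it binds dsRNA, and Zbp1 senses nucleic acids in the Z form. These genes are classic interferon-stimulated genes, and macrophages exposed to LPS are known to make type I interferon through Toll-like receptor 4. Interferon acts on such genes through a promoter element called the interferon-stimulated response element (ISRE).

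Because the 10 genes moved together, their promoters are shown. Promoter windows of RefSeq (build GRCm38.p6), from 250 bases before to 50 bases after the start, were matched for 7 of the 10 genes. Oas2, Dhx58 and Zbp1 had no window in the table. An ISRE-type motif, GAAANNGAAA on either strand, was in 5 of the 7 windows, against 3.44% of 32851 windows of all genes. The matched stretches, 30 bases each and read on the strand of the gene, are given with the motif in capitals. In Oas1a the capitals hold 2 overlapping matches, and in Ddx58 the match lies on the opposite strand.
Oas1a (chr5:120907523-120907552, minus strand): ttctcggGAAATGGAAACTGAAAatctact
Oas3 (chr5:120777715-120777744, minus strand): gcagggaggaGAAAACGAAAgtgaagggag
Ifih1 (chr2:62646206-62646235, minus strand): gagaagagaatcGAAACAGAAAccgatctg
Ddx58 (chr4:40239804-40239833, minus strand): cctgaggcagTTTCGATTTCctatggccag
Eif2ak2 (chr17:78882535-78882564, minus strand): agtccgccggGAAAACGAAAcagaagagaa
The match began 20 bases before the start in Oas1a and 75 bases before it in Oas3. It began at base 3 of the transcript in Ddx58, at base 19 in Eif2ak2 and at base 33 in Ifih1.

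The windows of Oasl1 and Oasl2 held no ISRE-type match, and their 250 bases before the start are given for comparison.
Oasl1 (chr5:114922990-114923239, plus strand): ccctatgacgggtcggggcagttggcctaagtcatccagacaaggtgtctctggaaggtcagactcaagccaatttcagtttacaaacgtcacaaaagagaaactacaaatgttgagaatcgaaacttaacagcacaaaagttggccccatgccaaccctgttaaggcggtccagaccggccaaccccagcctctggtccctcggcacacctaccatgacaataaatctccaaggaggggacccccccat
Oasl2 (chr5:114896684-114896933, plus strand): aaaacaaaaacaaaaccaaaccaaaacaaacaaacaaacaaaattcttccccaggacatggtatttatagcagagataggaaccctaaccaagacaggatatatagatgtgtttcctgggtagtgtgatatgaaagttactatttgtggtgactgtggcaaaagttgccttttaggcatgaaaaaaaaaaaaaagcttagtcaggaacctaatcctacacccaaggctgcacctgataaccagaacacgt
A GAS-type motif, TTCNNNGAA, was in the windows of Oas1a and Eif2ak2, against 8.3% of all windows. A κB-type motif (the κB consensus, either strand) was found 2 times in the window of Oasl1 and 1 time in that of Oas3, against 8.46% of windows with at least 1. A match is a run of letters in these windows and not a measured binding site.

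Mean levels of all 10 genes were higher with LPS than with DMSO, and with LPS + Ska they lay between the DMSO and LPS means. Oasl2 and Zbp1 were tested because of their LPS level, so their rise was favoured by that choice. The summed level of the 10 genes was 96.4 ± 5.08 TPM with DMSO, 651 ± 8.49 TPM with LPS and 325 ± 3.77 TPM when skatole was added (SD over 3 columns). The plot of TPM by column shows this order in every gene.

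**Figure D1:**
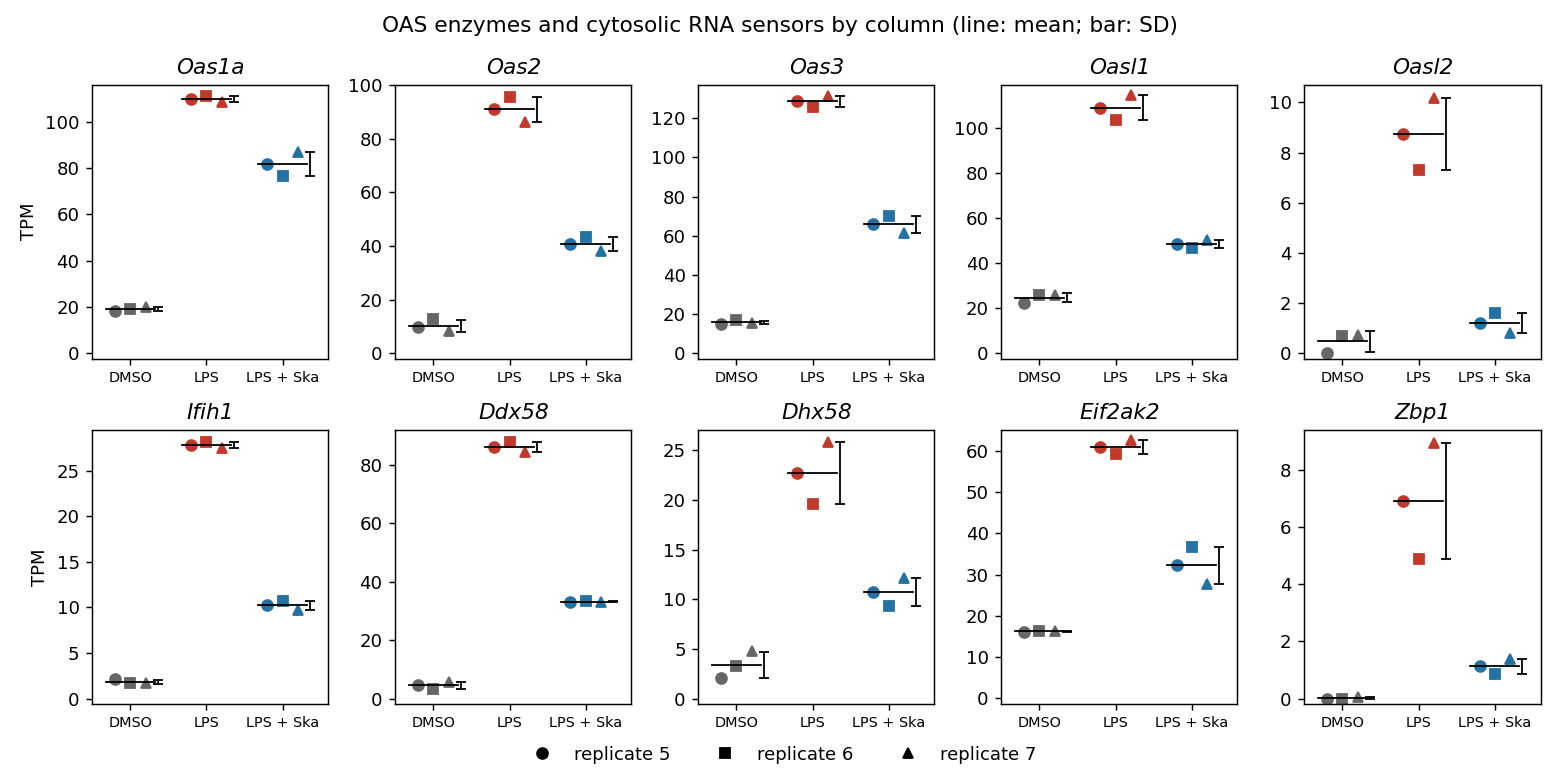
TPM of the 10 genes (vertical axes from 0, a scale for each gene) in the DMSO, LPS and LPS + Ska columns. Points are columns, with the shape giving the replicate number, lines are means and bars are SD over 3 columns. In every gene the LPS + Ska mean lies below the LPS mean and above the DMSO mean. Oasl2 and Zbp1 were tested because of their LPS level.

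Values were compared on a log2(TPM + 1) scale with limma, a linear model that borrows the estimate of spread across genes, in 1 fit of the 9 columns. A gene was called at a Benjamini-Hochberg adjusted p below 0.05 over all 12819 genes with a fold change above 1.5 or below 0.67. On this scale the change of a gene with a low TPM is understated. Oasl2 and Zbp1 reached the minimum mean through the LPS group alone, so a high LPS level was a condition of their being tested, and the counts are given for the other 8 genes. With LPS, 8 of the 8 were called higher than with DMSO, against 12.7% of all genes tested. With LPS + Ska, 7 of the 8 were called lower than with LPS, against 6.14% of all genes tested, and 8 of the 8 were called higher than with DMSO, against 11.4%. The LPS + Ska columns lay below all LPS columns in 8 of the 8 genes, as they did in 34% of all genes tested. With Oasl2 and Zbp1 the calls were 10 of 10, 9 of 10 and 9 of 10. The 3 comparisons share groups of columns and are not independent of each other.

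The median log2 fold change of these 8 genes was 2.71 for LPS against DMSO, -1.08 for LPS + Ska against LPS and 1.95 for LPS + Ska against DMSO. Over all genes tested the corresponding medians were -0.07, -0.10 and -0.18. When the columns were scaled by median ratios instead, these general medians were 0.02, -0.0017 and -0.0016, and the changes of the 10 genes from LPS to LPS + Ska ran from -2.09 in Oasl2 to -0.32 in Oas1a. Oas1a was again the gene of the 10 that was not called. Of all genes called between LPS + Ska and LPS, 35.3% were higher by TPM and 52.6% by median ratios.

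**Figure D2:**
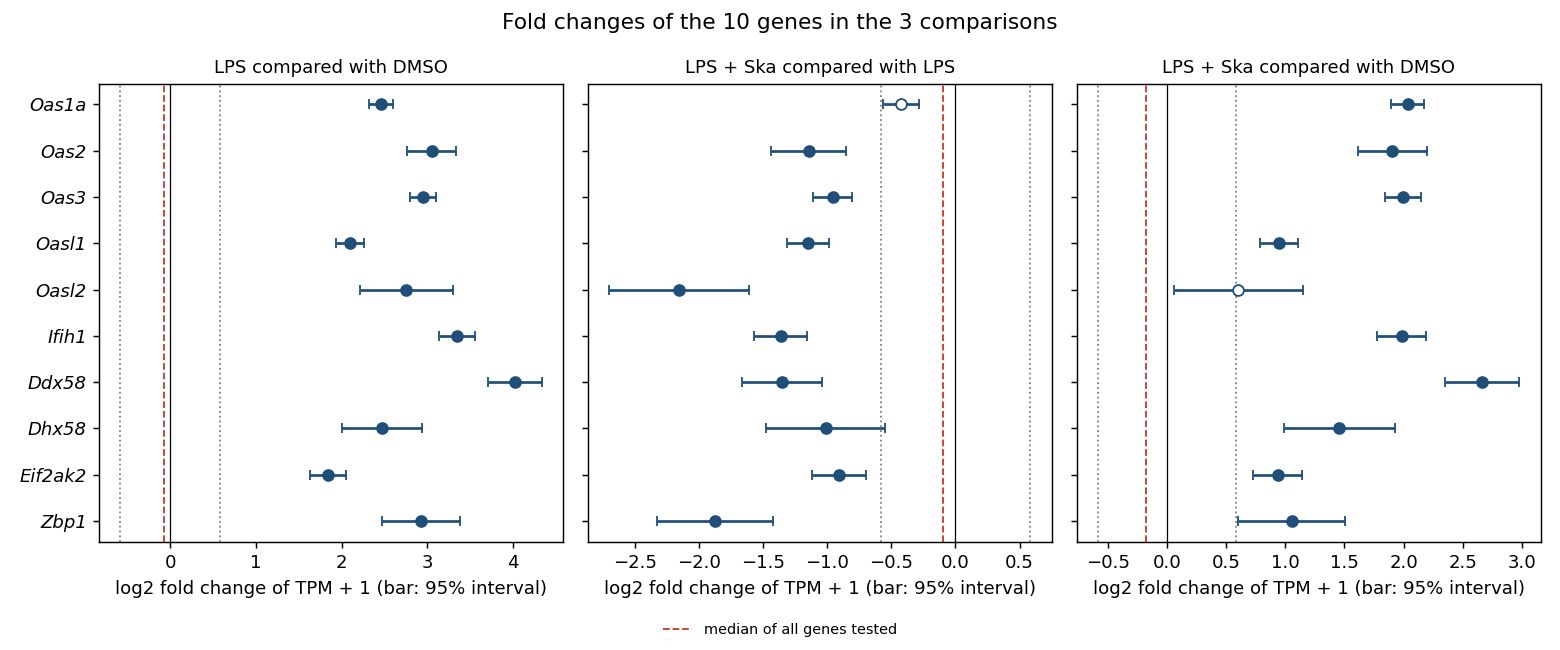
Log2 fold changes of TPM + 1 (horizontal axes) for the 10 genes in the 3 comparisons, with bars for the 95% interval of the limma fit. Filled points were called, dotted lines mark the fold limits of 1.5 and 0.67, and the dashed line is the median of all genes tested. Oas1a in LPS + Ska against LPS and Oasl2 in LPS + Ska against DMSO are the open points. Oasl2 and Zbp1 were tested because of their LPS level.

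Among the Oas enzymes, Oas1a (ENSMUSG00000052776, chr5:120896256-120907521) makes short oligoadenylates and was the least lowered by skatole. It was at 18.5, 19.1 and 19.9 TPM with DMSO, at 109.7, 111 and 108 TPM with LPS, and at 81.6, 76.4 and 86.8 TPM after LPS + Ska. The groups did not overlap, and the LPS + Ska columns stood nearer to LPS than to DMSO. Its log2 fold change was 2.46 for LPS against DMSO (standard error 0.06, limma adjusted p = 1e-08) and -0.43 for LPS + Ska against LPS (adjusted p = 0.0014). The 95% interval of the latter, from -0.56 to -0.29, lay inside the fold limit, so Oas1a was not called lower. With replicates 6 and 7 alone, the limma adjusted p of this decrease was 0.073. With LPS + Ska, Oas1a stayed above DMSO by 2.04 (adjusted p = 5e-08). Of the 50-base windows of the longest coding transcript of Oas1a, 57.6% also occur in Oas1g, which lies close by on chromosome 5, so how reads were divided between them is uncertain.

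Oas2 and Oas3, which carry several Oas domains and lie next to each other on chromosome 5, were lowered more. Oas2 (ENSMUSG00000032690, chr5:120730333-120749853) was at 9.70, 12.8 and 8.28 TPM with DMSO, at 90.9, 95.6 and 86.3 TPM with LPS, and at 40.6, 43.3 and 38.0 TPM after LPS + Ska. Its 3 groups were apart, with the LPS + Ska columns nearer to DMSO than to LPS in TPM, though nearer to LPS on the log2 scale. The log2 fold change was 3.05 with LPS (standard error 0.13, limma adjusted p = 1.7e-07) and -1.14 from LPS to LPS + Ska (adjusted p = 0.00041). Oas2 remained above DMSO by 1.91 with LPS + Ska (adjusted p = 2.3e-06).

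Oas3 (ENSMUSG00000032661, chr5:120753098-120777661) was at 15.0, 16.8 and 15.5 TPM with DMSO, at 129, 126 and 131 TPM with LPS, and at 65.9, 70.2 and 61.6 TPM after LPS + Ska. It had the highest level of the 10 genes with LPS, with no overlap with the next gene. Its log2 fold change was 2.95 with LPS (standard error 0.07, limma adjusted p = 4.8e-09), and it fell by 0.96 on the log2 scale from LPS to LPS + Ska (adjusted p = 3.4e-05). Against DMSO it was higher by 1.99 with LPS + Ska (adjusted p = 7.6e-08). Overlapping genes on the opposite strand can add reads where strand was not used in counting, and here Gm43068 overlaps Oas2 by 1273 bases. Its own means were 0.034, 1.93 and 0.532 TPM with DMSO, LPS and LPS + Ska.

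The level of Oas1a was also set against those of Oas2 and Oas3 within each column. The ratio of the TPM of Oas1a to that of Oas2 was 1.93 ± 0.456 with DMSO, 1.21 ± 0.0468 with LPS and 2.02 ± 0.259 when skatole was added (SD over 3 columns). The ratio of Oas1a to Oas3 was 1.21 ± 0.0752 with DMSO, 0.854 ± 0.0283 with LPS and 1.25 ± 0.160 with LPS + Ska. In both ratios the LPS columns lay below all DMSO and LPS + Ska columns, whose ranges overlapped. Both rest on Oas1a, whose reads may be shared with Oas1g. The ratio of Oas3 to Oas2 was 1.58 with DMSO (range 1.32 to 1.87), 1.42 with LPS (1.32 to 1.52) and 1.62 with LPS + Ska, and its DMSO columns overlapped those of both other groups. No test was run on these ratios.

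The Oas-like genes carry ubiquitin-like domains, and Oasl1 is known to restrain translation of the interferon regulator Irf7. Oasl1 (ENSMUSG00000041827, chr5:114923240-114937915) was at 22.5, 26.0 and 25.7 TPM with DMSO, at 109, 103 and 114 TPM with LPS, and at 48.6, 46.8 and 50.4 TPM after LPS + Ska. It had the highest DMSO level of the 10 genes, and its groups did not overlap. The log2 fold change was 2.09 with LPS (standard error 0.07, limma adjusted p = 6e-08) and -1.15 from LPS to LPS + Ska (adjusted p = 2e-05). It stayed 0.95 above DMSO with LPS + Ska (adjusted p = 4.7e-06). Gm13822, on the opposite strand, overlaps it by 38 bases.

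Oasl2 (ENSMUSG00000029561, chr5:114896936-114912234), which lies close to Oasl1, was much less abundant. It was listed at 0, 0.702 and 0.728 TPM with DMSO, at 8.75, 7.31 and 10.2 TPM with LPS, and at 1.20, 1.60 and 0.801 TPM after LPS + Ska. Since it was tested only because of its LPS level, its differences from LPS are a description. The fitted rise with LPS was 2.76 on the log2 scale, or 4.44 when 0.1 was added in place of 1. Adding skatole to LPS changed it by -2.15 in log2 fold change (standard error 0.24). Against DMSO the LPS + Ska columns were all higher, by 0.60 in log2 fold change (95% interval 0.06 to 1.15), but the limma adjusted p of 0.052 missed the threshold. With LPS the level of Oasl1 was 12.6 ± 1.45 times that of Oasl2, and with LPS + Ska it was 44.2 ± 17.1 times (SD over 3 columns).

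Of the RIG-I-like receptors, Ddx58 and Ifih1 had the largest increases of the 10 genes with LPS on the log2(TPM + 1) scale. Ddx58 (ENSMUSG00000040296, chr4:40203773-40239828) encodes RIG-I, which binds RNA with a triphosphate end. It was at 4.55, 3.19 and 5.65 TPM with DMSO, at 86.0, 87.6 and 84.4 TPM with LPS, and at 33.1, 33.2 and 32.9 TPM after LPS + Ska. The mean with LPS was 19.3 times the mean with DMSO, and the LPS + Ska columns were close together between the other groups. In log2 fold change it rose by 4.02 with LPS (standard error 0.14, limma adjusted p = 6e-08), changed by -1.35 from LPS to LPS + Ska (adjusted p = 0.00025) and was 2.67 above DMSO with LPS + Ska (adjusted p = 5.9e-07).

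Ifih1 (ENSMUSG00000026896, chr2:62595798-62646255) encodes MDA5, which binds long dsRNA. It was at 2.12, 1.74 and 1.68 TPM with DMSO, at 27.9, 28.2 and 27.6 TPM with LPS, and at 10.2, 10.7 and 9.75 TPM after LPS + Ska. Every LPS column was above 27 TPM, and no column of another group reached 11 TPM. The log2 fold change was 3.35 with LPS (standard error 0.09, limma adjusted p = 2e-08), -1.36 from LPS to LPS + Ska (adjusted p = 2.8e-05) and 1.98 for LPS + Ska against DMSO (adjusted p = 3.2e-07). The TPM ratio of Ddx58 to Ifih1 was 3.09 ± 0.0253 with LPS and 3.23 ± 0.144 when skatole was added (SD over 3 columns), with overlapping columns.

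Dhx58 (ENSMUSG00000017830, chr11:100694884-100704271) encodes LGP2, which binds RNA but lacks the signalling domains of the other receptors and modulates them. It was at 2.12, 3.29 and 4.74 TPM with DMSO, at 22.7, 19.6 and 25.8 TPM with LPS, and at 10.7, 9.33 and 12.2 TPM after LPS + Ska. The columns of Dhx58 were spread more widely around their means than those of Ddx58 with LPS and LPS + Ska, although its groups did not overlap. Its log2 fold change was 2.47 with LPS (standard error 0.21, limma adjusted p = 1e-05) and -1.01 from LPS to LPS + Ska (adjusted p = 0.0069), and with LPS + Ska it was 1.46 above DMSO (adjusted p = 0.00022). The decrease with LPS + Ska did not hold in every fit: with replicates 6 and 7 alone its log2 fold change was -1.01 and its adjusted p was 0.095. The antisense gene Dhx58os overlaps it by 2637 bases and was at 0, 0.163 and 0 TPM on average with DMSO, LPS and LPS + Ska.

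Eif2ak2 (ENSMUSG00000024079, chr17:78852564-78882573) encodes PKR, the kinase that phosphorylates the translation factor eIF2α on sensing dsRNA. It was at 16.1, 16.3 and 16.4 TPM with DMSO, at 61.0, 59.3 and 62.7 TPM with LPS, and at 32.2, 36.8 and 27.7 TPM after LPS + Ska. The LPS + Ska columns were the most spread of the 3 groups and still lay apart from the others. In log2 fold change Eif2ak2 had the smallest rise of the 10 genes with LPS, 1.84 (standard error 0.09, limma adjusted p = 4.5e-07). It changed by -0.91 from LPS to LPS + Ska (adjusted p = 0.00025) and was 0.94 above DMSO with LPS + Ska (adjusted p = 2.3e-05). The opposite-strand gene Gm26637 overlaps it by 532 bases and has no value here.

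Zbp1 (ENSMUSG00000027514, chr2:173206612-173218923), the Z-form nucleic acid sensor that can start necroptosis through Ripk3, was close to absent without LPS. It was listed at 0, 0 and 0.0568 TPM with DMSO, at 6.92, 4.90 and 8.95 TPM with LPS, and at 1.12, 0.874 and 1.38 TPM after LPS + Ska. As for Oasl2, its differences from LPS are a description. Adding skatole to LPS changed it by -1.87 in log2 fold change (standard error 0.20), and with LPS + Ska it was 1.05 above DMSO (limma adjusted p = 0.0013). The fitted rise with LPS was 2.93 and depends on the pseudocount, since it was 5.88 when 0.1 was added in place of 1.

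The order of the levels changed between groups. With DMSO, Oasl1 led, followed by Oas1a, and the columns of Eif2ak2 and Oas3 overlapped behind them. With LPS, Oas3 led, the columns of Oas1a and Oasl1 overlapped in the next places, and those of Oas2 and Ddx58 overlapped after them. With LPS + Ska, Oas1a led with no overlap, followed by Oas3, Oasl1 and Oas2, each apart from the next. Oasl2 and Zbp1 had the lowest levels in every group and overlapped each other in each. TPM is scaled by transcript length, so levels of these genes can be set side by side within a group. The place of Oas1a is less certain, since its reads may be shared with Oas1g.

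The share of the LPS rise that was kept with LPS + Ska was described on the TPM scale, as the LPS + Ska mean minus the DMSO mean over the LPS mean minus the DMSO mean. Oas1a kept 68.9 ± 5.74% of its rise (SD over 3 LPS + Ska columns), the highest share of the 10 genes. Oas3 kept 44.4 ± 3.78%, Dhx58 38.1 ± 7.31%, Oas2 37.7 ± 3.26%, Eif2ak2 35.7 ± 10.1%, Ddx58 35.1 ± 0.164%, Ifih1 32.3 ± 1.92% and Oasl1 28.4 ± 2.14%. Zbp1 kept 16.0 ± 3.63% and Oasl2 8.75 ± 4.83%, and these were the genes with the lowest levels. Both were tested because of their LPS level, which is part of this measure, so their low shares were favoured by that choice. The columns of Dhx58, Oas2, Eif2ak2 and Ddx58 overlapped each other in this measure. Those of Oas3 overlapped Dhx58, Oas2 and Eif2ak2, and those of Ifih1 overlapped Dhx58, Eif2ak2 and Oasl1. Oasl1 also overlapped Eif2ak2, and Zbp1 overlapped Oasl2. The measure uses the LPS columns in both of its parts, so no test was made. For Oas1a and Oas1g, which share sequence, the shares were close, with Oas1g at 62.8 ± 2.05%.

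**Figure D3:**
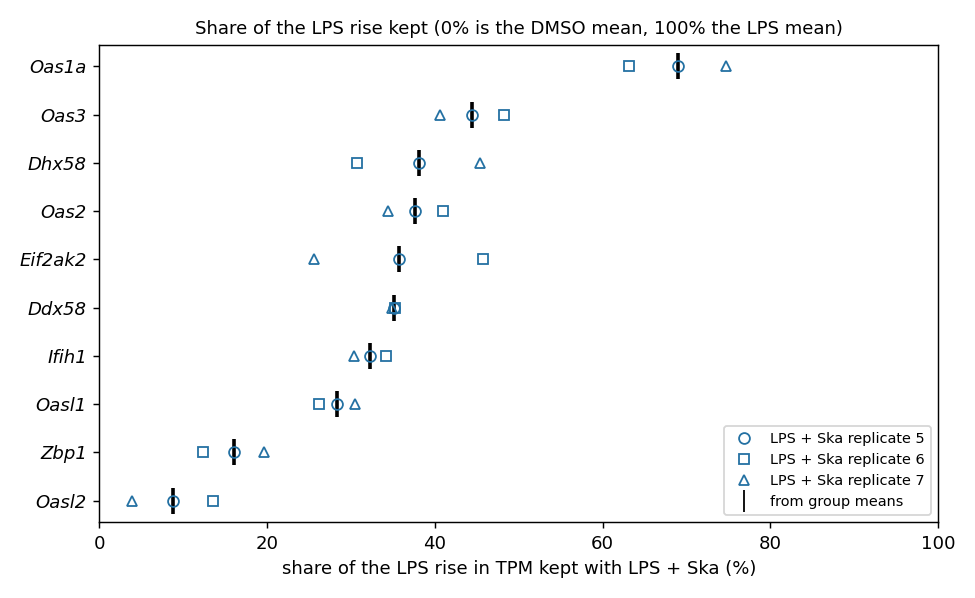
Share of the LPS rise in TPM kept with LPS + Ska, in percent (horizontal axis), where 0 is the DMSO mean and 100 the LPS mean. Open points are the LPS + Ska replicates and vertical marks come from the group means. Oas1a stands at 68.9%, 7 genes from 28.4% to 44.4%, and Zbp1 and Oasl2 at 16.0% and 8.75%. Oasl2 and Zbp1 were tested because of their LPS level, which favours a low share.

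The other genes of these pathways were taken from fixed lists of 60 genes, of which 53 were tested. Of the 53, 15 were called higher and 8 lower with LPS, where 12.7% of all genes tested were higher and 20% lower. None was called higher and 7 lower with LPS + Ska against LPS, where 6.14% of all genes were lower, at a median log2 fold change of -0.19. With the limma adjusted p alone and no fold limit, 22 of the 53 passed, where 1139 of all 12819 genes tested were higher and 2524 lower. At an unadjusted p under 0.05, 2 of the 53 were higher and 25 lower. All genes were not counted at that limit, so this count has no background and shows nothing particular to the lists. Over all genes tested, 4758 log2 fold changes were above 0 and 8060 below. With replicates 6 and 7 alone, 1 of the 7 calls was left, and over all genes the calls went from 429 higher and 787 lower to 153 and 227. The adjusted p was then 0.25 for Oas1b, 0.15 for Oas1c, 0.091 for Akap7, 0.058 for Irf7, 0.094 for Stat2 and 0.18 for Tlr9. Against DMSO, 8 were higher and 11 lower with LPS + Ska, where 11.4% of all genes were higher and 25.3% lower.

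Of 7 other Oas genes listed, 3 were tested and all 3 rose with LPS. Oas1g, another Oas1 gene, was at 17.0 ± 2.17, 89.8 ± 3.12 and 62.7 ± 1.49 TPM with DMSO, LPS and LPS + Ska (SD over 3 columns), and its log2 fold change of -0.51 between the last 2 lay inside the fold limit (limma adjusted p = 0.0027). Oas1b, annotated as a polymorphic pseudogene, fell from 10.3 ± 2.65 to 6.21 ± 0.297 TPM (log2 fold change -0.62, adjusted p = 0.034). Oas1c was at 2.93 ± 0.822 TPM with DMSO and fell from 5.34 ± 0.0941 TPM with LPS to 2.67 ± 0.715 TPM with LPS + Ska (-0.81, adjusted p = 0.011). Against DMSO it then had a log2 fold change of -0.10 (95% interval -0.51 to 0.32), and the columns overlapped. Oas1d, Oas1e, Oas1f and Oas1h did not reach a mean of 1 TPM.

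Of the genes whose products break down the oligoadenylates, Akap7 was called and Pde12 was not with LPS + Ska against LPS. Akap7 fell from 17.6 ± 0.759 TPM with LPS to 9.43 ± 1.98 TPM with LPS + Ska (SD over 3 columns; log2 fold change -0.85, limma adjusted p = 0.0061). Pde12, another such phosphodiesterase, was at 15.8 ± 0.733 and 15.9 ± 0.121 TPM, a difference of 0.01 in log2 fold change (95% interval -0.18 to 0.19).

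Downstream of the RIG-I-like receptors, 1 of 10 tested genes of Mavs signalling was called between LPS + Ska and LPS. This was Irf7, the interferon regulatory factor that amplifies the interferon response. It was at 5.26, 2.29 and 2.51 TPM with DMSO, at 96.1, 87.4 and 105 TPM with LPS, and at 38.0, 29.8 and 46.3 TPM after LPS + Ska. Adding skatole to LPS changed it by -1.33 on the log2 scale (standard error 0.24, limma adjusted p = 0.0037), and it kept 37.4 ± 8.92% of its LPS rise. Mavs itself was at 31.6 ± 4.05, 27.9 ± 1.35 and 24.3 ± 2.36 TPM with DMSO, LPS and LPS + Ska and was not called in any comparison. The kinase gene Tbk1 changed by -0.12 from LPS to LPS + Ska (95% interval -0.29 to 0.05) and Ikbke by -0.02 (95% interval -0.22 to 0.18). Irf3 was lower with LPS, at 29.1 ± 0.309 TPM against 58.2 ± 6.83 TPM with DMSO, and was at 26.1 ± 1.30 TPM with LPS + Ska. Among 9 tested modulators of these receptors, which include the ubiquitin ligase gene Trim25, none was called by limma with LPS + Ska against LPS. At an unadjusted p under 0.05, 1 of the 9 was higher and 2 lower. All genes were not counted at that limit, so this count has no background either. The list ran from Zc3hav1 at -0.43 to Nlrx1 at 0.28 in log2 fold change.

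In the interferon loop, 2 of 7 tested genes were called lower with LPS + Ska against LPS. Among them Stat2, a subunit of the factor that binds the ISRE, was at 14.9 ± 2.53, 12.4 ± 2.40 and 6.38 ± 1.12 TPM in the DMSO, LPS and LPS + Ska groups (SD over 3 columns). Its change from LPS to LPS + Ska was -0.85 (limma adjusted p = 0.0063), with no call for LPS against DMSO. Irf9, the DNA-binding subunit of that factor, was at 11.1 ± 1.93, 44.0 ± 2.46 and 34.5 ± 0.919 TPM in the 3 groups and kept 70.9 ± 2.79% of its rise. The receptor genes Ifnar1 and Ifnar2 were lower with LPS than with DMSO, by log2 fold changes of -0.63 and -1.01, and differed between LPS + Ska and LPS by 0.03 (95% interval -0.15 to 0.21) and 0.01 (95% interval -0.15 to 0.16). Ifnb1, the gene of interferon beta, was listed at 0 in all DMSO and LPS + Ska columns and at 0.0372, 0.112 and 0 TPM with LPS, too low for a test.

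The other kinases that phosphorylate eIF2α did not rise with LPS as Eif2ak2 did. Eif2ak1, Eif2ak3 and Eif2ak4 changed by -0.30, -0.29 and 0.15 in log2 fold change with LPS, and by -0.09, -0.10 and -0.53 from LPS to LPS + Ska, with no call in either comparison. The decrease of Eif2ak4 passed the adjusted p (limma adjusted p = 0.0044) but lay inside the fold limit. Adar, which edits dsRNA and limits its sensing, rose from 36.9 ± 4.02 to 65.6 ± 2.81 TPM with LPS (0.82, limma adjusted p = 3.1e-05). With LPS + Ska it was at 43.7 ± 1.57 TPM and kept 23.7 ± 5.48% of its rise. Its fold of 0.671 against LPS just missed the limit of 0.67 (adjusted p = 0.0013). Of the partners of Zbp1 in cell death, Mlkl, the effector of necroptosis, rose from 13.0 ± 1.67 to 33.7 ± 2.52 TPM with LPS (1.31, adjusted p = 4.3e-06). It was at 23.7 ± 0.511 TPM with LPS + Ska, a change of -0.49 inside the fold limit. Ripk3 was at 85.5 ± 3.33, 69.3 ± 6.57 and 75.2 ± 3.53 TPM in the 3 groups and was not called.

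Among the other nucleic acid sensors, 6 of 7 were tested and Tlr9, the endosomal DNA receptor, was the 1 called between LPS + Ska and LPS. It was at 7.07 ± 0.485, 5.84 ± 0.729 and 3.48 ± 0.921 TPM in the DMSO, LPS and LPS + Ska groups (log2 fold change -0.63 against LPS, limma adjusted p = 0.018). From LPS to LPS + Ska, Cgas, the cytosolic DNA sensor, changed by -0.34 (limma adjusted p = 0.0059) and its adaptor Sting1 by -0.40 (adjusted p = 0.0067). Both passed the adjusted p but lay inside the fold limit. Tlr3, the endosomal dsRNA receptor, rose with LPS from 1.31 ± 0.197 to 2.79 ± 0.240 TPM. It was at 1.80 ± 0.244 TPM with LPS + Ska, a change of -0.44 inside the fold limit (adjusted p = 0.043). Of the 6 log2 fold changes from LPS to LPS + Ska, 5 were below 0 and 1 above, where 8060 and 4758 of all genes tested were.

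**Figure D4:**
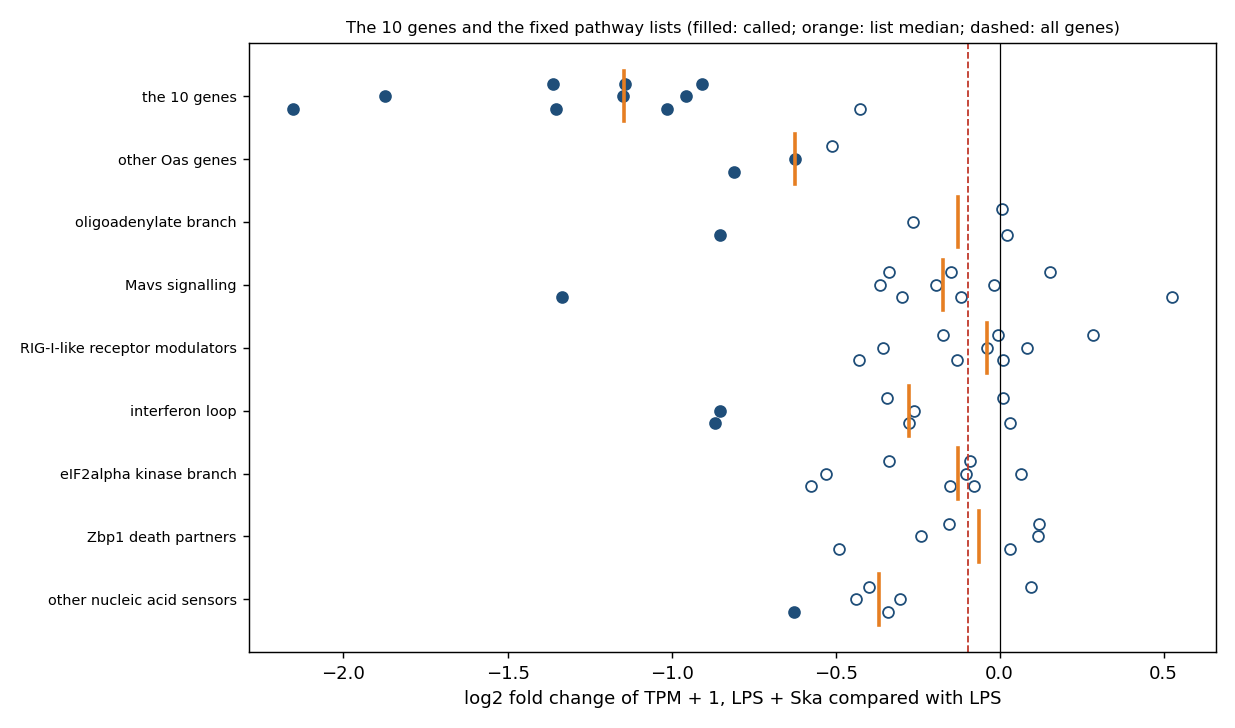
Log2 fold change of TPM + 1 for LPS + Ska against LPS (horizontal axis) of the 10 genes and of each tested gene in 8 pathway lists. Filled points were called, orange marks are list medians and the dashed line is the median of all genes tested, -0.10. The 10 genes, with Oasl2 and Zbp1 at the left, have a median of -1.14. Oasl2 and Zbp1 were tested because of their LPS level, and the median of the other 8 is -1.08. The other Oas genes have a median of -0.62, and the other lists from -0.37 to -0.04.

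The genes outside these lists whose pattern was most like the mean pattern of the 10 genes were ranked by Pearson's r of log2(TPM + 1) over the 9 columns. The highest were Scin (r = 0.999), Gm49383, Parp9, Ddx24, Mx2, Irgm1, Tnip1, Sec16b, Syn1 and Ifi44l (r = 0.993). The columns fall into the 3 treatment groups, so a high r says mainly that a gene had the same order of group means. Of 12748 genes compared, 304 had an r of at least 0.95. Scin was at 0.0985 ± 0.106, 43.2 ± 1.40 and 8.34 ± 0.0241 TPM in the DMSO, LPS and LPS + Ska groups. Ddx24, Tnip1 and Sec16b were not called in LPS + Ska against LPS, at log2 fold changes of -0.33, -0.41 and -0.46. The rest of the 10 most alike were called lower. All 10 were picked by this pattern, so their direction was set by that choice. Some of these 10 are known interferon-stimulated genes. Mx2, which encodes an antiviral GTPase, was at 0.162 ± 0.165, 21.2 ± 1.57 and 3.83 ± 0.0495 TPM in the DMSO, LPS and LPS + Ska groups. Ifi44l was at 0.909 ± 0.372, 61.7 ± 3.18 and 11.3 ± 1.83 TPM, and Irgm1, a GTPase of the interferon response, at 9.86 ± 0.558, 74.9 ± 2.75 and 34.2 ± 1.32 TPM (SD over 3 columns).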

How the data were processed

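RAW264.7 RNA-seq libraries were made with the NEBNext Ultra RNA kit. Per the labels, the submitters' processing notes name fastp 0.20.1, HISAT2 2.2.1, StringTie 2.0 and the mm10 build, without their roles. The deposited values are TPM (reads scaled by transcript length and library sum), computed by the authors for 55401 Ensembl genes in 9 columns. Whether counting used strand is not given in the sources used here. TPM are relative to the sum of each column and keep no depth. Labels give a treatment of 24 h, while the study's methods give a longer time in 1 place.

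Genes whose mean reached 1 TPM were kept, transformed as log2(TPM + 1) and fitted with limma 3.58.1 (R 4.3.3; lmFit, eBayes with trend) on all 9 columns, and p-values were adjusted over all 12819 genes. A call needed an adjusted p under 0.05 together with a fold above 1.5 or under 0.67. The fit was tested on simulated data. Coordinates come from GENCODE M21 (GRCm38), promoters from RefSeq (GRCm38.p6). Gene symbols were matched for 55141 of the IDs.

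The 10 genes and the pathway and marker lists were chosen with earlier results of these data known. The genes named were the 10, those list genes that were called in LPS + Ska against LPS or set beside one of the 10, and the 10 genes most like their mean pattern. Samples share replicate numbers across groups. Deviations from the group means correlated between LPS and LPS + Ska columns of the same number at 0.38, 0.15 and 0.13, and between other same-numbered columns from -0.032 to 0.080. The tie gives replicate 5 no independent value, so no pairing by number was assumed. Alternatives covered scaling, pseudocount, filters, thresholds, the trend, the tied columns, the replicate block and leaving out each column. A gene of the pathway lists is counted in them but not reported here.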

Additional observations from a re-analysis of the deposited data

How the results depend on the processing

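Over 21 alternatives, the log2 fold changes of the 10 genes kept their direction in all 3 comparisons. Of 624 repeats, 612 kept the call, 7 gained one and 5 lost one. The repeats reuse the same samples and are not independent, and they include Oasl2 and Zbp1, which were tested because of their LPS level. A minimum mean of 5 TPM left out Oasl2 and Zbp1, and the other 8 genes were called with LPS in each alternative. In LPS + Ska against LPS, Dhx58 was lost with replicates 6 and 7 alone (adjusted p = 0.095), and Oas3 (-0.96) and Eif2ak2 (-0.91) were lost with an adjusted p below 0.01 and a fold change beyond 2 or 0.5, while Oas1a was gained without a fold limit. In LPS + Ska against DMSO, that strict limit lost Oasl1 and Eif2ak2, and Oasl2 was gained with median-ratio scaling (adjusted p = 0.027), without the trend (0.049), after genes of the mitochondrial genome and ribosomal proteins were taken out of the scaling (0.041), and without DMSO replicate 6 (0.043), DMSO replicate 7 (0.040) or LPS + Ska replicate 7 (0.035).

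Counts over all genes moved more. With the adjusted p alone, 3354 genes were higher and 4380 lower with LPS, 1139 and 2524 with LPS + Ska against LPS, and 2915 and 5201 with LPS + Ska against DMSO, with 39, 22 and 33 genes of the pathway lists. Under the strict limit the counts were 515 and 882, 111 and 154, and 491 and 1187, with 9, 1 and 8 of the lists. In LPS + Ska against LPS, replicates 6 and 7 alone gave 153 higher and 227 lower with 1 of the lists, and a mean of 5 TPM gave 516 lower, against 429 and 787 as reported. Median-ratio scaling gave 2222 higher in LPS + Ska against DMSO, against 1457. The share of the rise kept became 76.05% for Oas1a, 41.78% for Oas2, 49.15% for Oas3, 33.93% for Oasl1, 35.44% for Ifih1 and 38.31% for Ddx58 with that scaling. That of Ddx58 was 35.72% with those mitochondrial and ribosomal protein genes out of the scaling and from 34.58% to 35.55% without single columns. The cause was not tested. With the replicate block, 427 genes were higher and 771 lower in LPS + Ska against LPS, and no call of the 10 genes changed. Depth is unknown, which limits Oasl2 and Zbp1 most.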
